A study of Mus musculus with 2 samples.

Results

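The Hox genes of the mouse were followed in freshly sorted muscle stem cells, which carry the factor Pax7 and rebuild injured muscle, in 1 dKO and 1 WT library. The members are 38 Hox genes of the 4 clusters A, B, C and D, chosen by symbol from 24532 gene IDs in the deposited count table, with the reads of all transcript rows of a gene summed. Both libraries came from male C57BL/6 mice whose titles carry the mark 6M, which the labels do not spell out. The dKO genotype combines Pax7-CreER, a tamoxifen-inducible Cre recombinase expressed under Pax7 control, with Esr2-/-, the loss of the estrogen receptor beta gene, and with a Cre-deletable allele of a gene not reported here. The WT library carries the genotype label WT with no allele listed. The tamoxifen protocol (an oral dose of 20 mg/mL in oil, given daily over 5 days to mice aged 3 months) stands on both samples, so the WT mice share it as far as the labels say. Limb muscle was digested, and cells with Vcam1 on their surface, and without Sca1, CD45 or CD31, were sorted. Which limbs were taken and how many mice were pooled are not given in the labels.

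Hox genes encode homeodomain transcription factors that give cells their place along the body. Within a cluster the genes lie in the order of their paralogue numbers, and low numbers are used toward the head and high numbers toward the tail and, in the limb, toward the digits. Adult connective tissue and muscle cells are known to keep part of the Hox pattern of the place they come from. Hox proteins bind DNA together with cofactors of the TALE homeodomain class, the Pbx, Meis and Pknox proteins, and the clusters are classic targets of Polycomb repression and of trithorax activation.

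The 2 libraries held 43699831 (dKO) and 36636680 (WT) reads. With 1 library per group there is no replicate spread and no test: each statement compares these 2 libraries, and each 95% interval covers counting error only. A gene was called measured at 10 or more reads in the higher library, and 2-fold apart at a ratio of 2 or more in CPM, read counts scaled to library size. Esr2 itself had 45 reads in dKO and 71 in WT (0.634 of WT, 0.426 to 0.933). Which exons of Esr2 the allele lacks is not stated in the labels, so these reads do not check the genotype. All 10 muscle stem cell markers were present in both libraries, with 12620 reads of Pax7 in dKO and 22335 in WT. A read number of 0 needs care in this table. Among genes with 1 row and 20 to 80 reads in WT, 126 of 1319 had 0 reads in dKO but 15 had 1 to 3, so a 0 is given below as listed at 0 and with no fold. In the other direction, 26 of 1309 genes with 20 to 80 dKO reads were at 0 in WT. Even numbers were 57.2% of dKO and 55.9% of WT entries between 10 and 100 reads, so reads may not have been counted independently of each other and the intervals may be too narrow.

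The sorted cells of both libraries used much the same part of the Hox clusters. Of the 38 Hox genes, 30 were measured. Hoxb1, Hoxb13, Hoxc12, Hoxc13, Hoxd1, Hoxd11 and Hoxd12 were listed at 0 in both libraries, and Hoxd13 had 0 reads in dKO and 7 in WT. For the 7 genes without reads, 3 reads, or 0.0750 CPM in either library, is the one-sided limit that a count of 0 allows. The 95% intervals of the other values are two-sided. Summed over transcript length (CPM per kb of transcript, the scale on which levels of different genes are compared here), cluster C gave 62.1% of the Hox level in dKO and 61.6% in WT. Cluster A gave 28.4% in dKO and 27.9% in WT, cluster B 5.98% in dKO and 6.68% in WT, and cluster D 3.56% in dKO and 3.74% in WT. The order of the clusters by level was the same in both libraries.

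**Figure D1:**
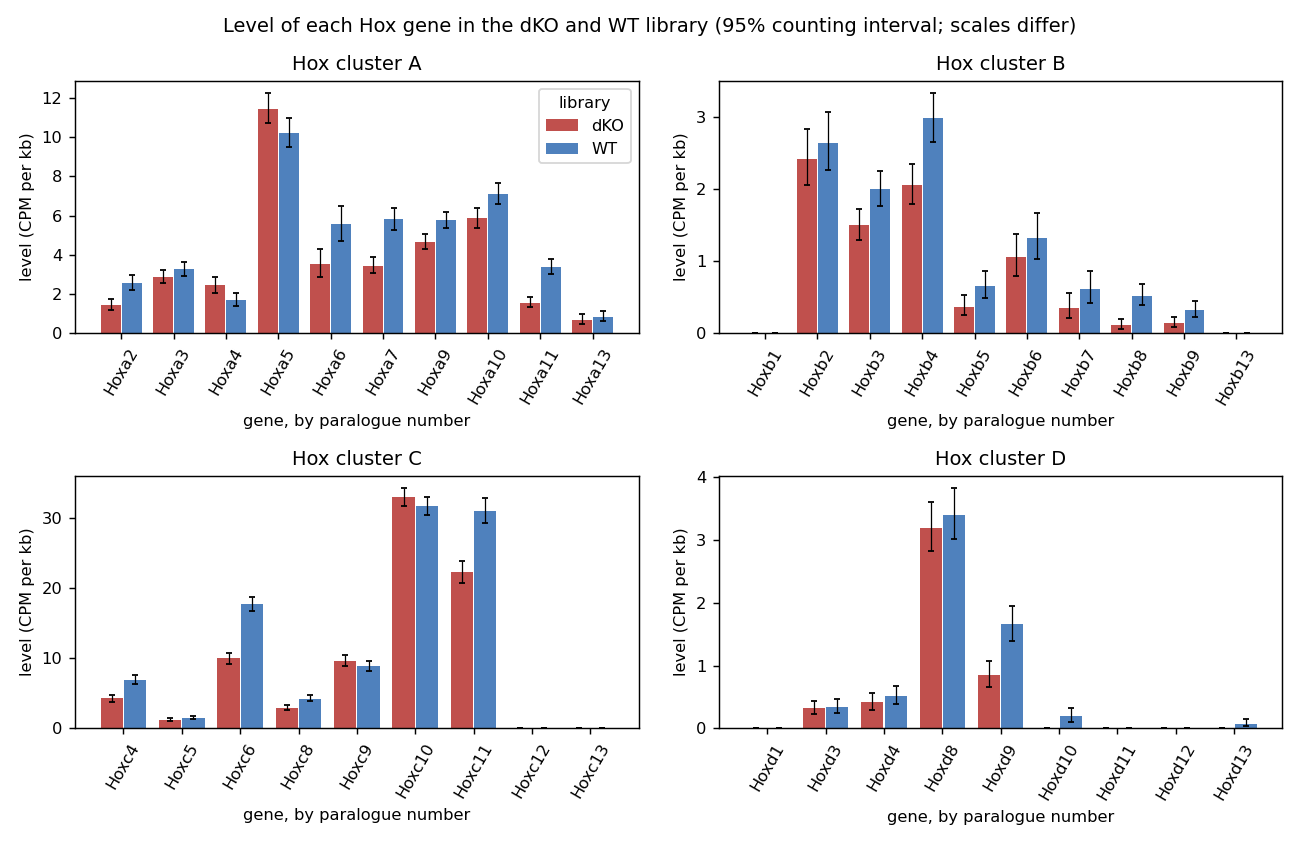
Level of each of the 38 Hox genes in CPM per kb of transcript, one panel per cluster with its own scale, dKO bars left of WT bars, with 95% counting intervals (not drawn at 0). Hoxc10 and Hoxc11 reached 32.9 and 22.2 in dKO against 31.6 and 31.0 in WT, while 7 genes were at 0 in both libraries.

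The most abundant Hox RNAs came from the posterior end of cluster C. Hoxc10, a gene of lumbar and hindlimb identity, stood at 32.9 CPM per kb in dKO and 31.6 in WT, and its neighbour Hoxc11 at 22.2 in dKO and 31.0 in WT. Together they made up 41.2% of the Hox level in dKO and 37.9% in WT. In dKO the counting intervals of Hoxc10 and Hoxc11 were apart, and in WT they overlapped. Hoxc6, Hoxa5 and Hoxc9 held the next places in both libraries. Hoxc6, a gene of thoracic identity, was at 9.97 in dKO and 17.7 in WT, and Hoxa5, known for patterning of the neck and shoulder region, at 11.5 in dKO and 10.2 in WT. Hoxa5 was therefore above Hoxc6 in dKO and below it in WT, and only the WT intervals of this pair were apart. Of the neighbours in the order of levels, 24 of 28 pairs in dKO and 26 of 30 pairs in WT had overlapping intervals, so the lower part of the order is not resolved by counting. Against all 14885 measured genes, Hoxc10 was at percentile 85.5 and Hoxc11 at percentile 82.8 of the level per kb, Hoxa5 at 64.8, and the lowest measured member, Hoxd10, at 3.17.

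Most Hox genes had somewhat less RNA in dKO than in WT, mostly by less than 2-fold. Of the 30 measured members, 26 had a log2 ratio of dKO over WT below 0 and 4 above it, with a median of -0.44. Over all 14885 measured genes, 52.4% were below 0 and the median was -0.03. Within the abundance range of the measured Hox genes (0.175 to 61.7 CPM), 58.6% of 11422 genes were below 0 and the median was -0.12. By the 2-fold rule 4 Hox genes were lower and 0 higher, against 11.9% lower and 5.26% higher among all measured genes. The 4 genes are 13.3% of the measured members, which is close to the share of all genes. This closeness depends on the scaling: by library totals alone, 10 of the 30 Hox genes (33.3%) and 15.9% of all measured genes were 2-fold lower, so the 2-fold count is not read as a result about the Hox genes. Of the 29 members with reads in both libraries, 16 had a counting interval wholly below 1, 2 wholly above 1, and 11 spanning 1. Of all such genes, 36.4% were wholly below 1 and 35.2% wholly above.

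**Figure D2:**
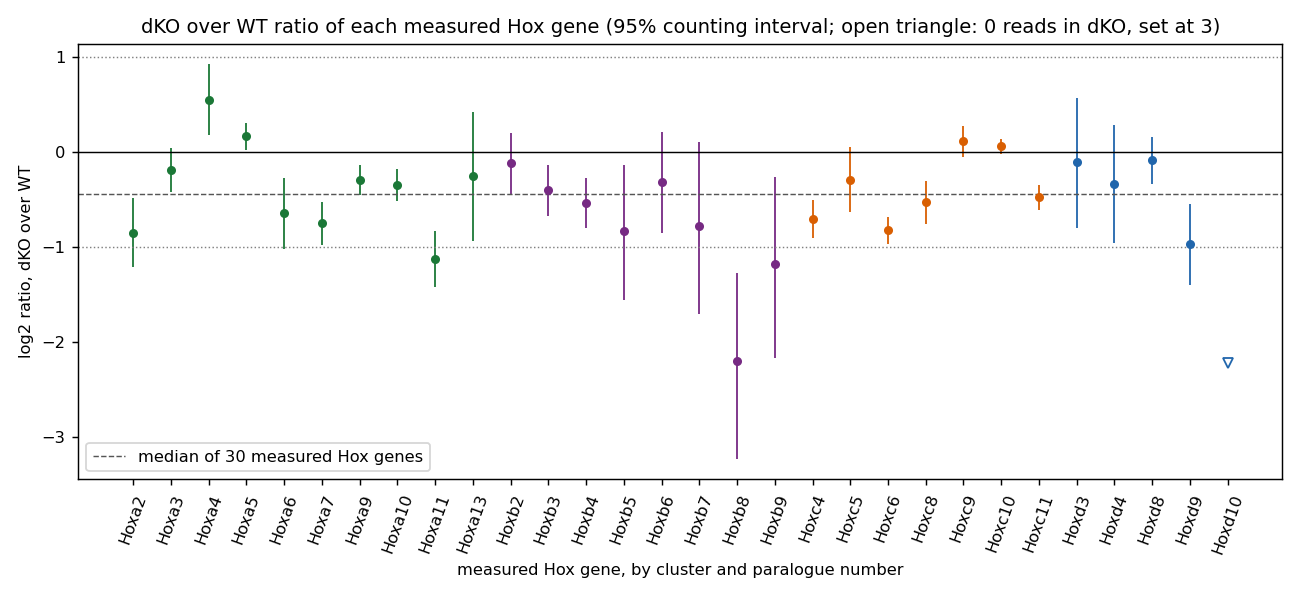
The log2 ratio of dKO over WT for each of the 30 measured Hox genes, ordered by cluster and paralogue number, with 95% counting intervals; dotted lines mark 2-fold and the dashed line the Hox median of -0.44. Values ran from 0.55 for Hoxa4 to -2.20 for Hoxb8 among genes with reads in both libraries, and the open triangle is Hoxd10, listed at 0 in dKO and drawn at 3 reads.

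The ratio varied with abundance across the whole table, and the Hox genes followed this only in part. The 7 Hox genes between 0.17 and 1 CPM had a median log2 ratio of -0.84, and 3 were 2-fold lower. All 1881 genes in that band had a median of -0.47, and 38.9% of them were 2-fold lower. Between 3 and 10 CPM, 11 of the 12 Hox genes were below 0 with a median of -0.47, against 66.7% of all 2522 genes and a median of -0.22. Between 10 and 30 CPM the 7 Hox genes had a median of -0.35 and all 3273 genes one of -0.06. The other bands held 3 Hox genes (1 to 3 CPM, median -0.34, against -0.32 for all genes) and Hoxc10 alone (30 to 65 CPM, 0.06, against 0.06).

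**Figure D3:**
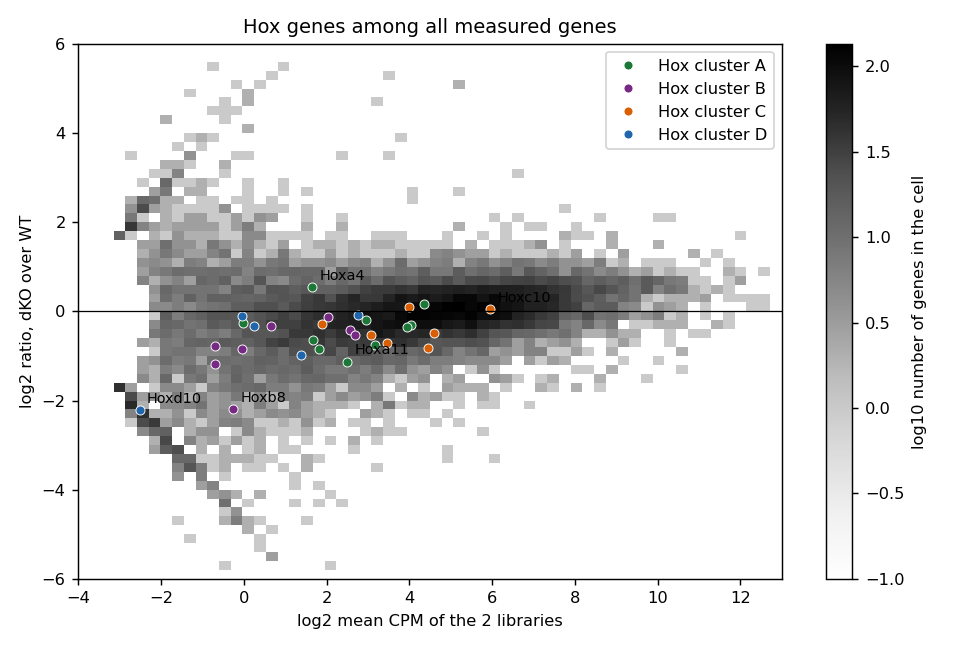
Log2 ratio of dKO over WT against log2 mean CPM, with grey cells shaded by the number of measured genes and coloured points for the 30 measured Hox genes by cluster; 19 measured genes lie outside the axes. Points of low abundance lie lower on average, and the 2 dark diagonals at the left are genes with 0 reads in 1 library, set at 3 reads.

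Cluster A, on chromosome 6 (52162417 to 52260880 on GRCm38 for the listed genes), had reads from Hoxa2 to Hoxa13. Its summed reads were 3087 in dKO and 3768 in WT, a ratio of 0.819 (0.781 to 0.859), and 8 of its 10 genes were below 0. At its anterior end, Hoxa2, the selector of the second branchial arch, had 101 reads in dKO and 182 in WT, 1.80-fold lower (1.41 to 2.32). Hoxa3, needed for thymus and parathyroid formation, had 291 reads in dKO and 332 in WT (ratio 0.876, 0.746 to 1.03). Hoxa4 went the other way, with 149 reads in dKO and 102 in WT (ratio 1.46, 1.13 to 1.90), the highest ratio of any Hox gene. Hoxa5 was also slightly higher, with 861 reads in dKO and 768 in WT (ratio 1.12, 1.02 to 1.24), but its ratio was 0.940 when scaled by library totals alone. Hoxa4 and Hoxa5 were the 2 Hox genes whose interval lay above 1 under TMM scaling. By library totals alone the ratio of Hoxa4 was 1.22, and no interval was computed for that scaling. Next to them, Hoxa6 had 99 reads in dKO and 155 in WT (1.57-fold lower, 1.21 to 2.04), and Hoxa7 had 269 in dKO and 453 in WT (1.68-fold lower, 1.45 to 1.97). Thus neighbouring genes of 1 cluster differed in direction.

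The posterior genes of cluster A pattern the segments of the limb. Hoxa9, also a regulator of blood stem cells, had 595 reads in dKO and 730 in WT (1.23-fold lower, 1.10 to 1.37). Hoxa10 had 544 in dKO and 693 in WT (1.27-fold lower, 1.14 to 1.43). Hoxa11, which patterns the forearm and lower leg, had 142 reads in dKO and 310 in WT and was 2.18-fold lower (1.78 to 2.68), the most abundant of the 4 Hox genes past 2-fold. In GENCODE M21, 800 of the 2287 exonic bases of Hoxa11 also lie in Hoxa11os, the RNA of the opposite strand. Hoxa11os had 169 reads in dKO and 291 in WT (1.72-fold lower, 1.42 to 2.09), and without a stated strand setting the reads of this pair cannot be told apart. Hoxa13, the gene of wrist, ankle and digits, was near the lower end, with 36 reads in dKO and 43 in WT (ratio 0.837, 0.522 to 1.33).

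The transcript rows of Hoxa10 pointed in opposite directions. The row of 2565 bases had 231 reads in dKO and 489 in WT (ratio 0.472), and the row of 2161 bases had 313 in dKO and 204 in WT (ratio 1.53). The sum hides this difference. The row of 2565 bases has the length of a GENCODE transcript that starts at 52234939 on the minus strand of chromosome 6, the inner of the 2 RefSeq starts. The other row matched no GENCODE length. The 250 bases before each start in RefSeq (GRCm38.p6) are shown because the rows differ, in lower case with each CG dinucleotide in capitals, 5' to 3' on the minus strand. The window before the inner start (chr6:52234940-52235189) holds 20 CG dinucleotides, and the one before the outer start (chr6:52240855-52241104) holds 7.
Hoxa10 inner start: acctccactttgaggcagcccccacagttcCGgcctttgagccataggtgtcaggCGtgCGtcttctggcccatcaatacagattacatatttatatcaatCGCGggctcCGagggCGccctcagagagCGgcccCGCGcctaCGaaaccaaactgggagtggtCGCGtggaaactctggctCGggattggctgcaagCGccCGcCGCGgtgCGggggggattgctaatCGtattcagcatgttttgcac
Hoxa10 outer start: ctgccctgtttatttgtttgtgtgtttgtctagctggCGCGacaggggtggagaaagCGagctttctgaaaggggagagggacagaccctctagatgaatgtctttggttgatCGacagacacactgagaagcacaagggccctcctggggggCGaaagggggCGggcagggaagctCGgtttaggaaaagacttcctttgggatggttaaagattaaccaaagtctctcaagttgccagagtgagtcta

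Hoxd8, Hoxb3 and Hoxa9 also had reads in more than 1 row. Hoxd8 had 46 reads in dKO and 104 in WT in its row of 2046 bases, and 216 in dKO and 175 in WT in its row of 2049 bases. These rows also point opposite ways, while their sum had a ratio of 0.939. Hoxb3, a hindbrain gene that overlaps the Hoxb4 locus, was listed at 0 in dKO and at 73 in WT in its row of 3313 bases, and had 203 reads in dKO and 196 in WT in the row of 3390 bases. For Hoxb3 the sum was 1.33-fold lower (1.10 to 1.60), while the row of 3390 bases alone gave a ratio of 1.04. The rows of Hoxa9 went the same way, with ratios of 0.676 (3056 bases) and 0.881 (3229 bases). The labels do not say how reads were divided among rows of nearly equal length, so a difference between rows of 1 gene may not be one between its transcripts.

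**Figure D4:**
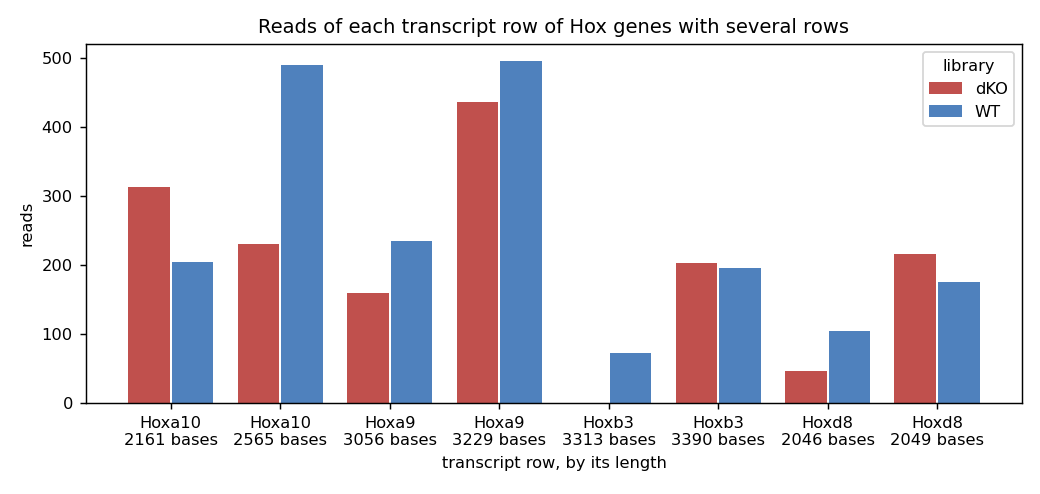
Reads of each transcript row of Hoxa9, Hoxa10, Hoxb3 and Hoxd8, named by its length in bases, dKO bars left of WT bars; rows at 0 in both libraries are left out. In Hoxa10 and Hoxd8 1 row is lower and the other higher in dKO, and in Hoxb3 the row of 3313 bases has 0 reads in dKO against 73 in WT.

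Cluster B, on chromosome 11 (96194316 to 96368254), was low, with the lowest ratio of the 4 clusters. It had 701 reads in dKO and 987 in WT, a ratio of 0.710 (0.644 to 0.783), and all 8 measured genes were below 0. This interval overlaps those of clusters A and D and lies below that of cluster C. The sum includes the Hoxb3 row listed at 0 in dKO and at 73 in WT. With only the row of highest share of each gene, the ratio was 0.760 for cluster B and 0.832 for cluster C. The gap to cluster C thus rests in part on that 0. Its reads lay mostly at the anterior end. Hoxb2 had 158 reads in dKO and 172 in WT (ratio 0.918, 0.735 to 1.15), and Hoxb4, known for its action on blood stem cells, had 211 in dKO and 306 in WT (1.45-fold lower, 1.21 to 1.74). Hoxb5 had 28 reads in dKO and 50 in WT (1.79-fold lower, 1.10 to 2.95). Hoxb6, a thoracic gene, had 56 in dKO and 70 in WT (ratio 0.800, 0.553 to 1.15), and Hoxb7 had 18 in dKO and 31 in WT (ratio 0.580, 0.306 to 1.07). The intervals of Hoxb6 and Hoxb7 include 1. The lowest ratio among genes with reads in both libraries was that of Hoxb8, a gene also expressed in myeloid precursors, with 12 reads in dKO and 55 in WT (4.58-fold lower, 2.43 to 9.41). Hoxb9 had 15 reads in dKO and 34 in WT (2.27-fold lower, 1.20 to 4.48). These 2 genes lie in the band of abundance in which 38.9% of all genes were 2-fold lower.

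Cluster C, on chromosome 15 (102921131 to 103036856), had reads from Hoxc4 to Hoxc11 and none from Hoxc12 and Hoxc13. Its sum was 5378 reads in dKO and 6407 in WT, a ratio of 0.839 (0.809 to 0.870). The difference was not even along the cluster. Hoxc4 had 337 reads in dKO and 549 in WT (1.63-fold lower, 1.42 to 1.87), and Hoxc6 had 635 in dKO and 1125 in WT (1.77-fold lower, 1.61 to 1.96). Hoxc5, between them, had 134 in dKO and 164 in WT (ratio 0.817, 0.645 to 1.03). Hoxc8, a thoracic gene known from vertebral patterning, had 278 reads in dKO and 401 in WT (1.44-fold lower, 1.24 to 1.69). In contrast, Hoxc9 had 661 in dKO and 613 in WT (ratio 1.08, 0.964 to 1.21), and Hoxc10 had 2520 in dKO and 2421 in WT (ratio 1.04, 0.984 to 1.10). Both intervals include 1, and both ratios were below 1, at 0.904 and 0.873, when scaled by library totals alone. In GENCODE M21, 166 exonic bases are shared by Hoxc10 and Hoxc5. Hoxc11 was lower again, with 813 reads in dKO and 1134 in WT (1.40-fold lower, 1.27 to 1.53).

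Cluster D, on chromosome 2 (74668225 to 74765142), had the lowest level of the 4 clusters and few reads beyond Hoxd9. It had 412 reads in dKO and 532 in WT, a ratio of 0.774 (0.679 to 0.882). Hoxd8 carried most of them, with 262 reads in dKO and 279 in WT (ratio 0.939, 0.790 to 1.12). Hoxd9 had 71 in dKO and 139 in WT (1.96-fold lower, 1.46 to 2.64), just under the 2-fold line. Hoxd3 had 37 reads in dKO and 40 in WT, and Hoxd4 had 42 in dKO and 53 in WT, with intervals that include 1; 9.26% of the exonic bases of Hoxd3 are shared with Hoxd4. Beyond Hoxd9, Hoxd10 was listed at 0 in dKO and had 14 reads in WT, and its call as lower rests on that 0. The 250 bases before the RefSeq starts of Hoxd8, Hoxd10 and Hoxd12 are shown as genes on either side of this change, with each CG dinucleotide in capitals, 5' to 3' on the plus strand. Hoxd9 is not shown because part of its window is exonic in GENCODE. The windows are chr2:74704365-74704614 for Hoxd8, chr2:74691641-74691890 for Hoxd10 and chr2:74674763-74675012 for Hoxd12, with 6, 20 and 10 CG dinucleotides.
Hoxd8: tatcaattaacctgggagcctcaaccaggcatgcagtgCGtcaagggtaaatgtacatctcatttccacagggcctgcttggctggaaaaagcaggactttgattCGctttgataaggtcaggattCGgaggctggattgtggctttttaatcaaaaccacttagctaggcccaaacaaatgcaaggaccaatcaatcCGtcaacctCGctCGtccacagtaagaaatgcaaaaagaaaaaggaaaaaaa
Hoxd10: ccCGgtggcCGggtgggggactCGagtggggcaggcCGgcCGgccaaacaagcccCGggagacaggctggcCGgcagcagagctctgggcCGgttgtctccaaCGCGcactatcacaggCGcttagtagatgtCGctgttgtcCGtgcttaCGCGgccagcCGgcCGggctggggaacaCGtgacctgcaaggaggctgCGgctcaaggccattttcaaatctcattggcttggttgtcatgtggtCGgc
Hoxd12: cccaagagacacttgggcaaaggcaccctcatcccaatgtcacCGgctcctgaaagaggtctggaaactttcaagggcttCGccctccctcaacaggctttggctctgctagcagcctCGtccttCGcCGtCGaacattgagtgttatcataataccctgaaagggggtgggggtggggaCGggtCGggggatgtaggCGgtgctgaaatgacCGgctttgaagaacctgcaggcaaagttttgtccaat

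The upstream windows of Hox genes held more CG dinucleotides than those of all genes by median. RefSeq promoter windows were at hand for 22 of the 38 members (24 windows). Their 250 bases before the start held a median of 12.5 CG dinucleotides (2 to 35), against 6 in all 32851 windows. The 18 windows of measured members had a median of 12.5 and the 6 windows of members not measured, Hoxd13 with its 7 WT reads among them, one of 15. Of the 24 windows, 10 overlap GENCODE exons, and the 14 without an exonic base had a median of 13, with 12 for the 11 of measured members and 20 for the 3 of members not measured. The motif CCAAT, searched on both strands, was present in 14 of the 24 windows (58.3%) and in 33.8% of all windows. The motif TATAAA, also searched on both strands, was present in 4 of 24 (16.7%) and in 12.4% of all windows. In the 14 windows without an exonic base, CCAAT was in 71.4% and TATAAA in 28.6%. A match is a description of the letters and not a site.

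By position along the clusters, the posterior genes were closest between the libraries in summed reads. Paralogues 9 to 13 had 5397 reads in dKO and 6138 in WT (ratio 0.879, 0.847 to 0.912). This closeness rests largely on Hoxc10, which alone gave 2520 of these reads in dKO and 2421 in WT (ratio 1.04). The same class holds 3 of the 4 Hox genes past 2-fold, and its group 11 had a ratio of 0.661 (0.609 to 0.718). Paralogues 5 to 8 had 2652 in dKO and 3551 in WT (ratio 0.747, 0.710 to 0.785), and paralogues 1 to 4 had 1529 in dKO and 2005 in WT (ratio 0.762, 0.713 to 0.815). By paralogue group, the sums of groups 6 and 7 had the lowest ratios, 0.585 and 0.593, and group 10 had a ratio of 0.979 (0.931 to 1.03). Group 5 had a ratio of 1.04 (0.953 to 1.14), set mainly by Hoxa5. Medians over single genes gave another order, with log2 ratios of -0.34 for paralogues 1 to 4, -0.65 for 5 to 8 and -0.42 for 9 to 13.

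Most non-coding RNAs of the clusters had few or no reads. Of 21 listed, 17 were in the table and 6 were measured, of which 1 was higher, 1 lower and 5 below 0. Among all measured genes, 5.26% were 2-fold higher, 11.9% lower and 52.4% below 0. Per length, Hotairm1 (4.05 CPM per kb in dKO and 7.21 in WT) and Hotair (3.81 in dKO and 4.80 in WT) stood among the Hox genes. Hotair, which lies between Hoxc11 and Hoxc12, had 339 reads in dKO and 427 in WT (1.26-fold lower, 1.09 to 1.46), and Hotairm1, at the anterior end of cluster A, had 41 in dKO and 73 in WT (1.78-fold lower, 1.20 to 2.68). Hottip, at the posterior end of cluster A, was listed at 0 in dKO and had 10 reads in WT. Hoxaas2, antisense to part of Hoxa3, had 17 reads in dKO and 4 in WT (ratio 4.25, 1.39 to 17.4). The listed microRNA genes of the clusters had at most 5 reads in either library.

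Hox cofactors were divided in direction. All 9 were measured, 4 were below 0 and 5 above, with a median log2 ratio of 0.20. Pknox1, the most abundant, had 5108 reads in dKO and 3899 in WT (ratio 1.31, 1.26 to 1.37). Most measured genes of like abundance were also above 0. Pknox2 had 1853 in dKO and 1898 in WT (ratio 0.976, 0.915 to 1.04). The cofactor past 2-fold was Pbx4, with 26 reads in dKO and 3 in WT (ratio 8.66, 2.66 to 44.7). Its WT reads are few, and 5.26% of all measured genes were 2-fold higher.

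Genes of limb position were in part lower, most of them with few reads. Of 39 listed genes 26 were measured, 6 were 2-fold lower, 0 higher and 21 below 0, with a median log2 ratio of -0.41. The 6 genes are 23.1% of those measured, against 11.9% of all measured genes, and Tbx5, Lmx1b and Isl1 lie in the band of 0.17 to 1 CPM in which 38.9% of all genes were lower. Zic1, a zinc finger factor of the dorsal body, was the abundant one among the 6, with 349 reads in dKO and 723 in WT (2.07-fold lower, 1.82 to 2.36). Pitx1, the hindlimb identity factor, had 12 reads in dKO and 79 in WT (6.59-fold lower, 3.57 to 13.3). Tbx5, the forelimb factor, and Lmx1b, the dorsal limb factor, were each listed at 0 in dKO and at 24 in WT, and their calls as lower rest on that 0. Isl1, a factor of the early hindlimb field, had 10 reads in dKO and 24 in WT (2.40-fold lower, 1.11 to 5.63), and Sp9, a gene of the limb ectoderm, had 3 in dKO and 10 in WT. Tbx4, the hindlimb T-box factor, had 671 reads in dKO and 1089 in WT (1.62-fold lower, 1.47 to 1.79). Zic1, Isl1 and Tbx4 were named after their values were seen. Pitx1, Isl1 and Tbx4 were lower with reads in both libraries, and Tbx5 was lower by its 0 in dKO. Hoxc10, also a gene of hindlimb identity, had a ratio of 1.04. A difference between hindlimb and forelimb genes was not tested. Of the 3 members highest per length, En1 was close, with 1117 reads in dKO and 1113 in WT. Lbx1, which guides migrating limb muscle precursors, had 1064 reads in dKO and 1291 in WT (1.21-fold lower, 1.12 to 1.32). Prrx1, a gene of limb mesenchyme, had 1674 in dKO and 2265 in WT (1.35-fold lower, 1.27 to 1.44). Of 10 head muscle position genes 7 were measured, with a median of -0.40. Msc, a bHLH factor of muscle precursors, was the member past 2-fold, with 9005 reads in dKO and 4033 in WT (ratio 2.23, 2.15 to 2.32). Six2 had 861 reads in dKO and 1077 in WT.

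Genes that act on the Hox clusters were mostly less than 2-fold apart between the libraries. Of 31 measured chromatin regulators, 1 (3.23%) was 2-fold lower, against 11.9% of all measured genes. In this list 0 were higher, 12 were below 0, and the median log2 ratio was 0.10. Cbx8, a Polycomb subunit, had 16 reads in dKO and 58 in WT (3.63-fold lower, 2.06 to 6.76). It lies in the band of 0.17 to 1 CPM in which 38.9% of all genes were 2-fold lower. Kdm6b, which removes the Polycomb mark, had 68672 reads in dKO and 47360 in WT (ratio 1.45). Dot1l had 23188 in dKO and 13103 in WT (ratio 1.77), and Phc2 had 7485 in dKO and 4767 in WT (ratio 1.57). Most measured genes of like abundance were also above 0, so these ratios are not read as particular to the regulators. Among 13 measured upstream homeobox and retinoid genes, 2 (15.4%) were lower, against 11.9% of all measured genes. In this list 0 were higher, and the median was -0.16. Aldh1a2, which makes retinoic acid, had 18 reads in dKO and 88 in WT (4.89-fold lower, 2.92 to 8.63). It lies in the band of 1 to 3 CPM in which 23.0% of all genes were 2-fold lower. Cyp26b1, which breaks it down, had 223 in dKO and 548 in WT by sum (2.46-fold lower, 2.10 to 2.89). Its row of 4700 bases was listed at 0 in dKO and stood at 2.43 CPM per kb in WT. The call of Cyp26b1 as lower rests on that 0, and its other row was higher in dKO. Over both rows its level was 1.17 CPM per kb in dKO and 2.91 in WT. The abundant members Egr2 and Aldh1a1 had ratios of 0.822 and 1.40, and Rarg had 5211 reads in dKO and 5205 in WT. Genes listed as neighbours of the Hox clusters had a median of 0.33, with 7 of 13 above 0. Of these 13, 1 was 2-fold higher, against 5.26% of all measured genes. Skap2, beside cluster A, had 710 reads in dKO and 343 in WT (ratio 2.07, 1.82 to 2.36), against the cluster A ratio of 0.819. Atp5g3, Atp5g1 and Tax1bp1 had ratios of 1.46, 1.87 and 1.32, at an abundance where most measured genes were also above 0.

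Markers of endothelial and immune cells, which the sort by CD31 and CD45 should remove, were also lower in dKO. Of 12 endothelial markers, 10 were 2-fold lower, against 11.9% of all measured genes, and 12 were below 0. Their summed level was 258 CPM in dKO and 548 in WT. Tek alone gave 119 of these in dKO and 142 in WT. Of 12 immune markers, 11 were 2-fold lower, with 58.3 CPM in dKO and 199 in WT. Of 10 fibro-adipogenic markers, 5 were 2-fold lower and 1 higher, and 7 were below 0. Among the lower ones was Ly6a, the gene of the sort antigen Sca1, with 386 reads in dKO and 2316 in WT (6.00-fold lower, 5.39 to 6.70). Their sum points the other way, at 2482 CPM in dKO and 2276 in WT, because Col15a1 (702 CPM in dKO and 253 in WT) and Dpt (670 CPM in dKO and 423 in WT) make up much of it. Tendon markers summed to 2183 in dKO and 4510 in WT (2 of 6 lower), mural markers to 824 in dKO and 1288 in WT (3 of 7 lower), glial markers to 214 in dKO and 256 in WT (0 of 6), and myofibre markers to 836 in dKO and 1013 in WT (0 of 8). No listed marker of these types was at 0 in either library, and several, such as Tek and Cd34, are also known from muscle stem cells. The muscle stem cell markers summed to 9827 CPM in dKO and 7889 in WT, with 0 of 10 past 2-fold. Sdc4 alone gave 4872 CPM of these in dKO and 2980 in WT. By single markers, 6 were below 0 and 4 above, with a median log2 ratio of -0.05, and Pax7 was 1.77-fold lower. The part of these other cells in the Hox values was not tested, and in bulk RNA fewer cells of a type and less RNA per cell cannot be told apart.

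**Figure D5:**
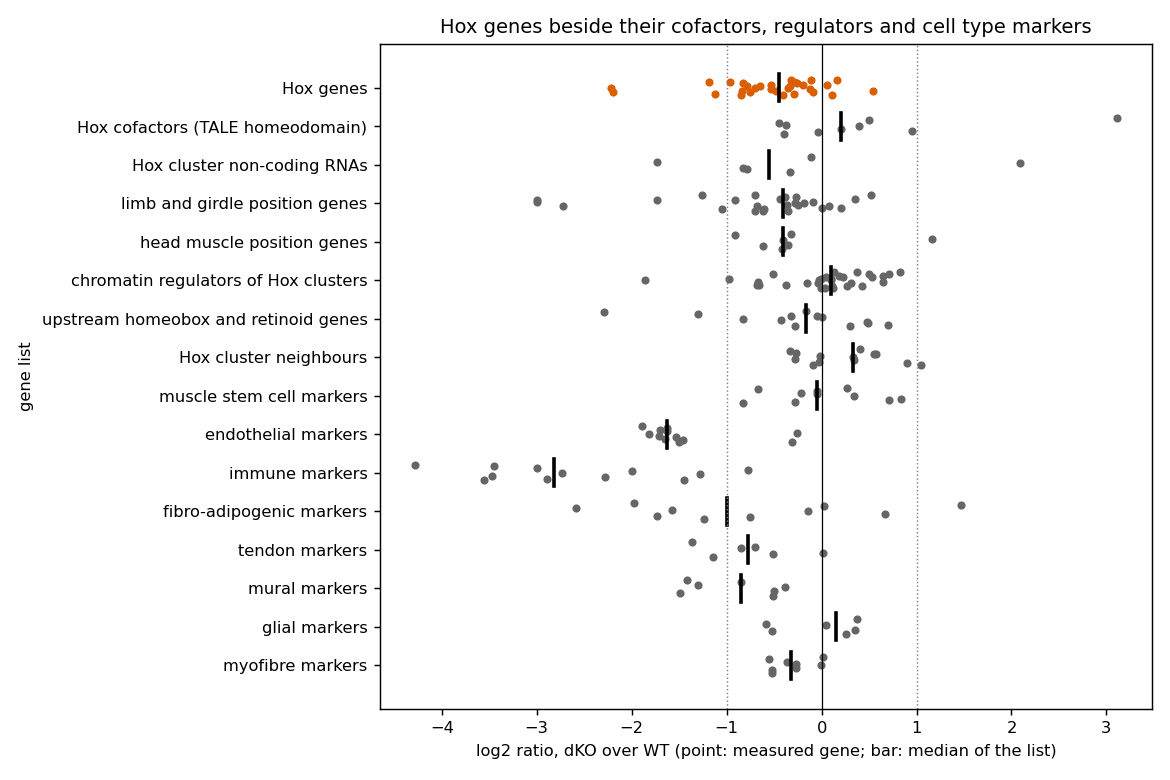
Log2 ratio of dKO over WT for the measured genes of the Hox clusters (top) and of each other list, with a bar at each median and dotted lines at 2-fold. The Hox median of -0.44 lies near those of limb position genes (-0.41) and head muscle position genes (-0.40). It lies between that of Hox cofactors (0.20) and those of immune (-2.82) or endothelial markers (-1.63).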

How the data were processed

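RNA from sorted muscle stem cells was sequenced in 1 dKO and 1 WT library. The authors deposited raw read counts for each transcript beside its length and gene ID, per the file headers. The tools TopHat2 2.0.9, bedtools and edgeR and the build mm10 come from the submitters' processing notes. Neither these nor the labels state the role of each tool, the counting rule, the annotation or the strand setting. The columns name their samples by genotype.

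The 36780 rows were summed per gene ID (24532 IDs, 24462 with a symbol in RefSeq on GRCm38, the assembly mm10 names). Totals were scaled by TMM in edgeR 4.0.16 (R 4.3.3), with factors of 0.916 for dKO and 1.09 for WT. Folds are CPM ratios with no pseudocount and exact conditional binomial (Clopper-Pearson) 95% intervals; for calls and medians, a 0 was set at 3 counts. Steps were tested on simulated counts. No test was possible with 1 library per group. All Hox genes with 10 or more counts are named. Of other lists, up to 4 genes 2-fold apart and the 3 highest per length are named. The members and lists were chosen with earlier results of these data known. Alternatives were median-ratio scaling, library totals, single rows, a pseudocount of 1 CPM, other count minimums and other call rules. Some other genes are not reported here.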

Additional observations from a re-analysis of the deposited data

How the results depend on the processing

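No paired analysis was possible because each group has 1 library. For the same reason no library could be left out. No Hox gene was 2-fold higher under any of the 11 alternatives run. The number lower, 4 as reported, was 10 under library totals, 12 with a 1.5-fold rule, 2 with a trend on abundance and transcript length removed (chosen after seeing the data), 1 with at least 100 counts and 0 with a pseudocount of 1 CPM. Under the other alternatives it was 3 to 5. The Hox median log2 ratio of -0.44 was -0.70 under library totals, -0.34 with the pseudocount and -0.28 with the trend removed, against -0.28, -0.02 and -0.03 for all measured genes. With the trend removed, 21 of 30 Hox genes were below 0. Library totals gave cluster ratios of 0.687 (A), 0.595 (B), 0.704 (C) and 0.649 (D). Hoxa5, Hoxc9 and Hoxc10 then had ratios of 0.940, 0.904 and 0.873, below 1. Taking the row with the highest share gave 0.779 for cluster A and summed Hox levels of 128 CPM per kb in dKO and 159 in WT, against 134 and 165 by sums, and moved Hoxa10 to 0.468, Hoxd8 to 1.22 and Hoxb3 to 1.03. Over all measured genes 783 were higher and 1769 lower (69.3% lower), 531 and 2370 under library totals (81.7% lower), and 286 and 640 with the pseudocount. Depth limits the 9 measured members under 100 reads most, where intervals are wide. The cause of these shifts was not tested.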
